A study of Mus musculus with 22 samples.

Results

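Apolipoproteins and lipid efflux genes were followed in single mouse astrocytes whose calcium response to ethanol (EtOH) had been recorded before the RNA was taken. The 10 genes were chosen by symbol as astrocyte lipoproteins, ABC lipid transporters and liver X receptors, together with a lipoprotein receptor, fatty acid binding proteins and a lipid droplet protein. They are Apoe, Clu, Abca1, Abcg1, Lrp1, Nr1h2, Nr1h3, Fabp5, Fabp7 and Plin2, which is 10 of the 23453 genes in the count table. The table held 22 cells of C57BL/6 mouse pups, in 4 response types named by the shape of the calcium signal under EtOH: 6 S-type cells (sustained), 6 T-type cells (transient), 5 M-type cells (mixed) and 5 NR cells (no response). All cells, NR included, were cortical astrocytes of newborn pups grown in serum medium, shaken and treated with cytosine arabinoside against other cell types, kept without serum for the last day, loaded with the calcium dye Fluo-4 and exposed to EtOH, so the table has no cell without EtOH. The animal, the culture and the time from EtOH to collection of a given cell are not given in the sources used here. Each type was therefore treated as 1 sample, no test between types was run, and the comparisons below are descriptions of these 22 cells.

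Astrocytes are the main source of apolipoprotein E in the brain. Cholesterol and phospholipid leave the cell through ABC exporters, load onto apolipoprotein particles outside it, and are taken up again by receptors of the LDL receptor family. Liver X receptors, nuclear receptors that bind oxysterols, switch on the exporters and Apoe when sterol accumulates. Inside the cell, fatty acid binding proteins carry fatty acids, and perilipin 2 coats droplets of stored neutral lipid.

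Reads were counted per gene, and a count was divided by the size factor of its cell to give a normalized count. The level of a type is the mean normalized count over its cells. Total counts were between 12229280 and 22131076 per cell outside T-type and between 2937786 and 19279519 in T-type, whose size factors (0.183 to 1.56) were also the most uneven, against 0.923 to 2.31 elsewhere. All 10 astrocyte markers had reads in every type, and over all cells they summed to 13541 to 208936 normalized counts per cell. The highest sum was in T-type cell 2, of size factor 0.276, where 7 of the 10 markers had more than 3 reads. Most of that sum came from Sox9 (110147) and Glul (57518). The 12 markers of microglia and macrophages summed to 0 to 6.13 normalized counts per cell in S-type and 1.40 to 15.1 in M-type, with 7 (P2ry12, Aif1, Csf1r, Ptprc, C1qa, C1qc and Trem2) and 2 (P2ry12 and Csf1r) at 0 in the whole type. In NR the sum was 13.0 to 734, with P2ry12 at 0, and NR cells 1, 2 and 4 had 558, 541 and 734. In T-type it was 0 to 179 with no marker at 0, and the 179 was in T-type cell 1. Cells are numbered within their type in the order of their records. Cldn5 and Cdh5 of endothelium and Sox10 of the oligodendrocyte lineage were at 0 in all 4 types. The 6 endothelial markers summed to 0 to 578 normalized counts per cell in S-type, 0 to 2499 in T-type, 0 to 51.1 in M-type and 0 to 167 in NR, and the T-type reads were mostly of Kdr, a receptor for vascular growth factor. Over all cells, the lists for the oligodendrocyte lineage, neurons, and mural cells with fibroblasts summed to 498 to 53351, 467 to 32066 and 324 to 103138. In the cells with these highest sums, most came from a single gene: Olig1 (51305), Stmn2 (31627) and Acta2 (103133). The sums of the cells that stand out are given below, and their part in the results was not tested.

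**Figure D1:**
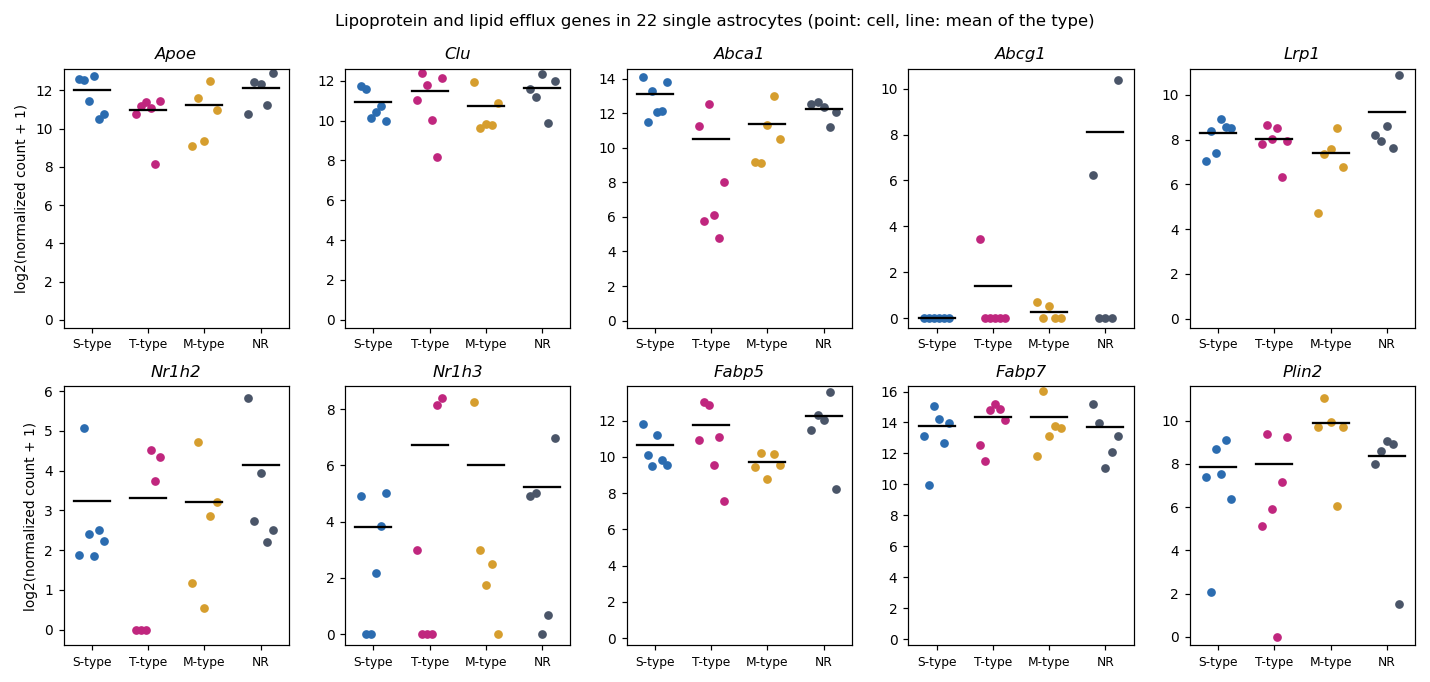
Normalized counts of the 10 genes by response type, as log2(normalized count + 1), with a point for each cell and a line at the mean of the type. Abca1 shows 4 T-type cells below all other cells, Plin2 shows 4 M-type cells above all other cells, and the NR mean of Abcg1 rests on 2 cells.

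The genes differed widely in level. Per kilobase of merged exon, which allows genes to be set beside each other, the median normalized count over the 22 cells was 10593 for Fabp7, 1202 for Apoe, 583 for Clu, 344 for Abca1, 329 for Fabp5, 92.1 for Plin2 and 14.1 for Lrp1. The receptors Nr1h3 and Nr1h2 had 2.32 and 1.39, and Abcg1 had 0. Apoe, Clu, Abca1, Lrp1, Fabp5 and Fabp7 had reads in all 22 cells, Plin2 in 21, Nr1h2 in 19, Nr1h3 in 15 and Abcg1 in 5. All 10 passed the filter of a read in at least 5 cells, as did 12719 genes of the table. Between the lowest and the highest cell, Clu spanned 18.97-fold, Apoe 27.3-fold, Fabp5 63.9-fold, Fabp7 67.9-fold, Lrp1 74.5-fold and Abca1 667-fold. Coverage along a gene is not part of the table, and the lengths assume that every exon was counted alike.

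**Figure D2:**
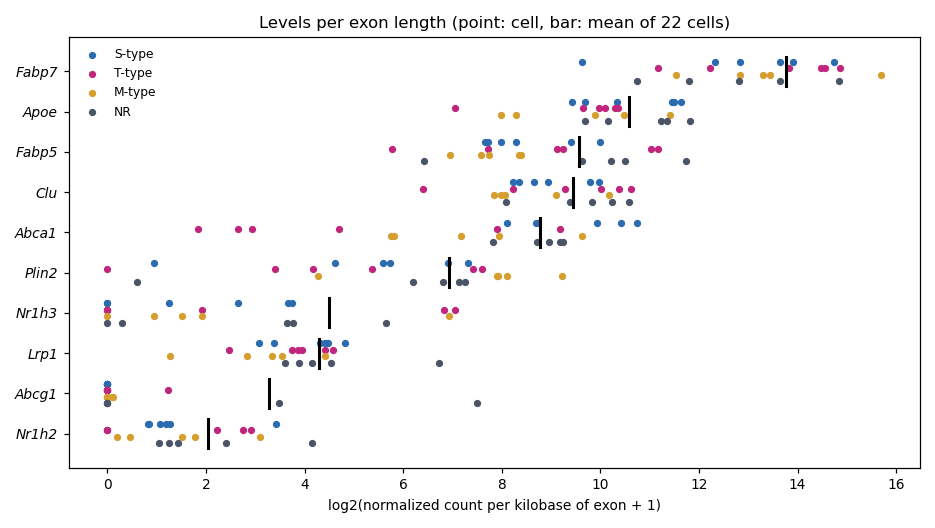
Normalized count per kilobase of merged exon, as log2(value + 1), with a point for each cell coloured by type and a bar at the mean of 22 cells. Fabp7 and Apoe have the highest means, and the bars of Nr1h3 and Abcg1 lie far to the right of most of their cells.

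Abca1, the exporter that hands cholesterol and phospholipid to lipid-poor apolipoproteins (chromosome 4, GRCm38 positions 53030787 to 53159895, minus strand), was low in T-type. T-type cells 1 to 6 had 2476, 54.4, 5973, 69.3, 26.6 and 259 normalized counts. The 4 low cells lay below every cell of the other types, whose lowest value was 547, while the other two lay among them. The low cells included both the 2 T-type cells of largest size factor, 1.54 and 1.56, and a cell of small size factor, 0.276.

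S-type cells 1 to 6 had 17725, 2833, 10157, 4296, 4386 and 14177 normalized counts of Abca1. Of these, 3 lay above every cell of the other types, whose highest value was 8172. M-type cells 1 to 5 had 576, 547, 2530, 8172 and 1481, and NR cells 1 to 5 had 5975, 6296, 5170, 2325 and 4369. NR was thus the most even type and M-type cell 4 alone held 61.4% of the M-type level.

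The type levels of Abca1 were 8929 in S-type, 4827 in NR, 2661 in M-type and 1476 in T-type. T-type was 6.05-fold lower than S-type, a log2 ratio of -2.60 with a 95% interval from counting alone of -2.65 to -2.55. Leaving out each cell in turn moved it between -3.95 and -2.28, so the spread between cells was far wider than that interval. The cell that moved it most was T-type cell 3, the library with the fewest reads, which held 67.4% of the T-type level. Without that cell the T-type cells ended at 2476 and the S-type cells began at 2833, so the cells no longer overlapped, as held for 1.45% of all genes with that cell left out. Against NR the T-type level was 3.27-fold lower (log2 ratio -1.71, leaving out a cell -3.06 to -1.45). Against M-type the log2 ratio was -0.85 and went from -2.21 without T-type cell 3 to 0.20 without M-type cell 4, so its direction rested on single cells. S-type stood 1.85-fold above NR (0.57 to 1.07 on the log2 scale when a cell was left out), and M-type had a log2 ratio of -0.86 to NR, which was -1.91 without M-type cell 4.

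As a description of how far the 4 labels sort the cells, 53.4% of the variance of log2(normalized count + 1) of Abca1 lay between types. That was above the share of 98.6% of the 8497 genes with a mean of at least 100 normalized counts. The same share was 26.6% for Lrp1, 23.6% for Apoe, 18.5% for Fabp5, 16.4% for Plin2, 9.88% for Clu and 4.79% for Fabp7. Of these 7 members, the ones with this mean, Abca1 thus had the largest share.

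**Figure D3:**
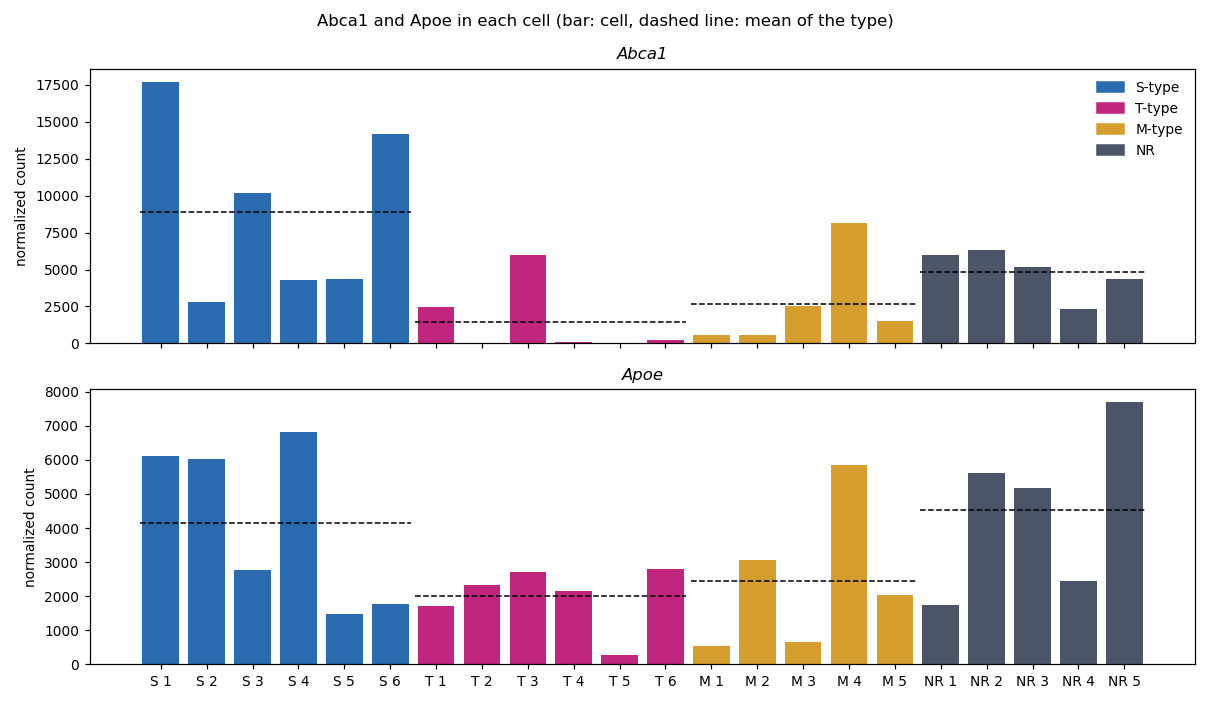
Normalized counts of Abca1 (top) and Apoe (bottom) in each of the 22 cells on linear axes that start at 0, with a dashed line at the mean of each type. S-type holds the 3 highest cells of Abca1, and T-type cell 3 stands above the other T-type cells.

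Since Abca1 is a textbook target of liver X receptors, its promoter was searched for their motif. The motif was taken as AGGTCA, any 4 bases and AGGTCA again, on both strands and with up to 3 of the 12 fixed bases different. The 250 bases before the annotated start, at chr4:53159896-53160145 (GRCm38.p6, minus strand, from RefSeq), held 1 such match, which starts 67 bases before the start and lies on the reverse strand. It is shown in capitals, 5′ to 3′ in the direction of the gene.
Abca1: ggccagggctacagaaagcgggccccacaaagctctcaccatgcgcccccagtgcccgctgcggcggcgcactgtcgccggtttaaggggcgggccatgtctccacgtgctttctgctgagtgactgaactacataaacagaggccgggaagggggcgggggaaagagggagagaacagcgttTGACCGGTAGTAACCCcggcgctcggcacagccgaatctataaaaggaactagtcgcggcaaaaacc
The match differs from the motif at 3 bases, and 21.9% of 32851 promoter windows held a match at this allowance. The table gave a promoter for 7 of the 10 genes. Fabp7 also reached 3 mismatches, and Apoe, Lrp1, Nr1h2, Nr1h3 and Plin2 did not. Neither the presence nor the lack of these letters says anything of receptor binding here.

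Abcg1, the exporter that passes cholesterol to particles already carrying lipid (chromosome 17, 31057675 to 31117988, plus strand), was nearly unread outside NR. It had 0 reads in the 6 S-type cells, 7 in T-type, all in cell 1, and 2 in M-type. NR had 1532 reads, of which cell 5 held 1409 and cell 1 held 123, while the other NR cells had 0. The NR level of 276 normalized counts therefore came to 94.6% from 1 cell. A count of 0 over S-type allows a level of up to 0.402 normalized counts, the value of 3 reads over the type. S-type was at least 686-fold lower than NR on that bound, and without NR cell 5 the log2 bound moved from -9.42 to -5.54. The M-type ratio to NR was -10.30 on the log2 scale, with a counting interval of -13.35 to -8.45 from its 2 reads, and the T-type ratio was -7.39. T-type against S-type was 7 reads of 1 cell against none, with a counting interval that begins at a log2 ratio of -1.14. Microglial markers summed to 13.0 in NR cell 5 and 558 in NR cell 1. NR cell 5 had the highest sums of its type for neurons (10005, others 1112 to 2216), endothelium (167, others 0 to 40.3) and the oligodendrocyte lineage (7038, others 2242 to 5859). It had reads of 3 of the 8, 1 of the 6 and 4 of the 8 markers of these lists. The largest parts were Stmn2 (6127), Flt1 (167) and Olig1 (6901). Its astrocyte marker sum, 123677, was also the highest of its type. The part of other cell types in the Abcg1 reads was not tested.

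Apoe, the main lipoprotein of astrocytes (chromosome 7, 19696109 to 19699188, minus strand), was lower in T-type than in S-type and NR. T-type cells 1 to 6 had 1721, 2325, 2695, 2143, 282 and 2787 normalized counts. Apart from cell 5 this was a narrow range. S-type cells had 6121, 6025, 2755, 6807, 1478 and 1767, and NR cells had 1753, 5614, 5166, 2446 and 7690. In both types, 3 cells lay above 5166 or at it and the rest lay inside the T-type range. M-type cells spread from 541 to 5855.

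The Apoe level was 1992 in T-type, 2435 in M-type, 4159 in S-type and 4534 in NR. The log2 ratio of T-type to S-type was -1.06 (-1.24 to -0.83 when each cell was left out), and to NR it was -1.19 (-1.39 to -0.91). T-type therefore lay on the 2-fold limit. Against S-type it was within 2-fold without T-type cell 5 (-0.83) or S-type cells 1, 2 or 4 (-0.92, -0.93 and -0.87), and against NR without T-type cell 5 (-0.96) or NR cell 5 (-0.91). S-type and NR differed by a log2 ratio of -0.12, and M-type against NR gave -0.90, or -1.52 without M-type cell 4. NR cells 1, 2 and 4, the 3 with 541 or more normalized counts of microglial markers, had 1753, 5614 and 2446 of Apoe, and cells 3 and 5 had 5166 and 7690. With cells 3 and 5 as the only NR cells, the T-type cells (up to 2787) lay below all NR cells (5166 and above), at a log2 ratio of -1.69. With so few NR cells, 6.31% of all genes had no overlap between T-type and NR.

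Clu, a secreted chaperone that is also carried on brain lipoproteins (chromosome 14, 65968483 to 65981547, plus strand), stayed within 2-fold in all 5 comparisons. Its level was 3151 in NR, 2836 in T-type, 1949 in S-type and 1679 in M-type, and in each type the cells spanned more than the types did. T-type cells alone ran from 286 in cell 5 to 5422 in cell 2, the lowest and the highest normalized counts of all 22 cells. The 5422 came from 1495 reads at a size factor of 0.276. Scaled by total reads (CPM), T-type cell 2 had 119, and NR cell 3 was the highest at 487. The place of T-type cell 2 as the highest thus depended on the scaling. T-type cell 5 was the lowest on the CPM scale too, at 22.9. The M-type level was 1.88-fold below NR, and M-type cell 1 held 47.0% of it. Without that cell the log2 ratio went from -0.91 to -1.50, and that of T-type to M-type from 0.76 to 1.35.

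Lrp1, the large endocytic receptor for Apoe-bearing particles (chromosome 10, 127538161 to 127621148, minus strand), was lowest in M-type. M-type cells 1 to 5 had 25.0, 161.05, 188, 360 and 108 normalized counts, and NR cells had 297, 244, 393, 199 and 1863. NR cell 5 was the highest of all 22 cells, ahead of an S-type cell at 484. It held 62.2% of the NR level and decided the NR comparisons. From low to high, the type levels were 168 (M-type), 261 (T-type), 309 (S-type) and 599 (NR). The log2 ratio of M-type to NR was -1.83 and became -0.75 without NR cell 5. Without M-type cell 4, the M-type cells (25.0 to 188) lay below all NR cells (199 to 1863), as 1.39% of all genes did in either direction, and the T-type ratio to M-type went from 0.63 to 1.11. The T-type ratio to NR, -1.20, became -0.12 without NR cell 5, and the S-type ratio went from -0.96 to 0.13. The log2 ratio of T-type to S-type was -0.25.

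The liver X receptors had few reads. Nr1h2, the widely expressed form (chromosome 7, 44549616 to 44553951, minus strand), had 133 reads in NR, 70 in M-type, 61 in T-type and 54 in S-type. Its levels were 16.8, 8.27, 8.90 and 8.41 in that order. The log2 ratio of T-type to S-type was 0.08 with a counting interval of -0.47 to 0.64, but it was 1.31 without S-type cell 2. NR cell 1 held 66.4% of the NR level and S-type cell 2 held 64.4% of the S-type level. M-type was at a log2 ratio of -1.02 to NR, which turned to 0.23 without NR cell 1 and was -0.75, -0.72 and -0.94 without M-type cells 1, 3 or 4. T-type cells 1 to 3 had no read, in libraries with size factors of 0.710, 0.276 and 0.183, where 3 reads equal 4.22, 10.9 and 16.4 normalized counts.

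Nr1h3, the form known from macrophages and liver (chromosome 2, 91184061 to 91202834, minus strand), had a few high cells in place of a level. T-type cells 5 and 6 had 282 and 333 normalized counts, cell 1 had 7.04 and the others had no read. M-type cell 1 had 303, which was 95.6% of the M-type level, and the other M-type cells had at most 7.002. NR cell 5 had 123, and no S-type cell had more than 31.2. The mean of T-type was 8.05-fold above S-type (log2 ratio 3.01) and 2.80-fold above NR, but the medians were 3.52 in T-type, 8.42 in S-type and 29.1 in NR, in the opposite order. The ratio to NR, 1.49 on the log2 scale, was 0.88 without T-type cell 5 and 0.64 without cell 6. S-type was at -1.52 to NR and at -0.26 without NR cell 5, and M-type was at 0.78 and at -3.40 without M-type cell 1. Microglial markers summed to 0 and 55.1 in T-type cells 5 and 6, to 13.8 in M-type cell 1 and to 13.0 in NR cell 5, beside sums of up to 179, 15.1 and 734 in other cells of those types.

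Fabp5, a fatty acid binding protein of many tissues (chromosome 3, 10012548 to 10016607, plus strand), was low in M-type and, in most cells, high in NR. M-type cells 1 to 5 had 681, 1191, 440, 1156 and 758 normalized counts, the narrowest range of the 4 types. NR cells had 2810, 5137, 4234, 12243 and 301. Except for cell 5, every NR cell was above every M-type cell, and with that cell left out 1.47% of all genes had no overlap. The log2 ratio of M-type to NR was -2.55, between -2.85 and -1.88 when a cell was left out, a 5.85-fold lower level. NR cells 1, 2 and 4, which have most of the microglial marker reads, had 2810, 5137 and 12243, and without them the ratio was -1.42. That comparison rests on NR cells 3 and 5, at 4234 and 301. NR cell 4, the highest of all 22 cells for Fabp5, also had the lowest astrocyte marker sum of all cells, 13541. The part of these markers was not tested.

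S-type cells had 3611, 1107, 716, 2399, 895 and 745 normalized counts of Fabp5, with a level 3.13-fold below NR. The log2 ratio of -1.65 became -0.98 without NR cell 4 and -0.52 without the 3 NR cells rich in microglial markers. T-type cells had 1976, 8254, 7445, 752, 2157 and 192, and the 2 highest were the cells of smallest size factor, 0.276 and 0.183. The T-type level was 2.19-fold above S-type and 4.10-fold above M-type. Without those 2 cells the log2 ratios were -0.32 and 0.59 in place of 1.13 and 2.03, so the higher T-type level of Fabp5 rested on the libraries with the least scaled depth. Leaving out 1 cell was enough to bring the ratio to S-type under 2-fold, with 0.67 and 0.76 without T-type cells 2 or 3 and 0.98 and 0.99 without S-type cells 3 or 6.

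Fabp7, the brain fatty acid binding protein of radial glia and astrocytes (chromosome 10, 57784881 to 57788450, plus strand), stayed within 2-fold in all 5 comparisons. Its type levels were 21179 in M-type, 20496 in T-type, 14305 in S-type and 13669 in NR, a span of 1.55-fold. M-type cell 2 had 66589, the highest value of any member in any cell, and 62.9% of the M-type level. The cells of each type ranged over more than 10-fold, from 981 to 34362 in S-type for example, so the order of the types was within the spread of cells. Without M-type cell 2 the log2 ratio of T-type to M-type went from -0.05 to 1.06. Without NR cell 1 the M-type ratio to NR rose from 0.63 to 1.42 and the T-type ratio from 0.58 to 1.38.

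Plin2, which coats lipid droplets (chromosome 4, 86648386 to 86670060, minus strand), was highest in M-type. M-type cells 1 to 5 had 850, 2096, 971, 64.8 and 836 normalized counts, and 4 of the 5 lay above every cell of the other types, whose highest value was 675. NR cells had 255, 392, 533, 486 and 1.85. S-type cells had 165.1, 3.25, 419, 182.2, 554 and 83.1, and T-type cells ran from 0 to 675 with a median of 101. S-type, T-type and NR each held a cell with at most 3 reads of Plin2 beside cells of up to 554, 675 and 533.

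The Plin2 level was 963 in M-type, 334 in NR, 252 in T-type and 234 in S-type. M-type was 2.89-fold above NR, with a log2 ratio of 1.53 that stayed between 1.03 and 1.83 when each cell was left out. T-type was 3.83-fold below M-type, a log2 ratio of -1.94 that stayed between -2.53 and -1.44. Without M-type cell 4 the M-type cells (836 to 2096) no longer overlapped with the NR cells (up to 533) or the T-type cells (up to 675), as 1.39% and 1.18% of all genes did not. In NR the cells rich in microglial markers had 255, 392 and 486, inside the range of the other two, and without them the ratio of M-type to NR was 1.85.

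**Figure D4:**
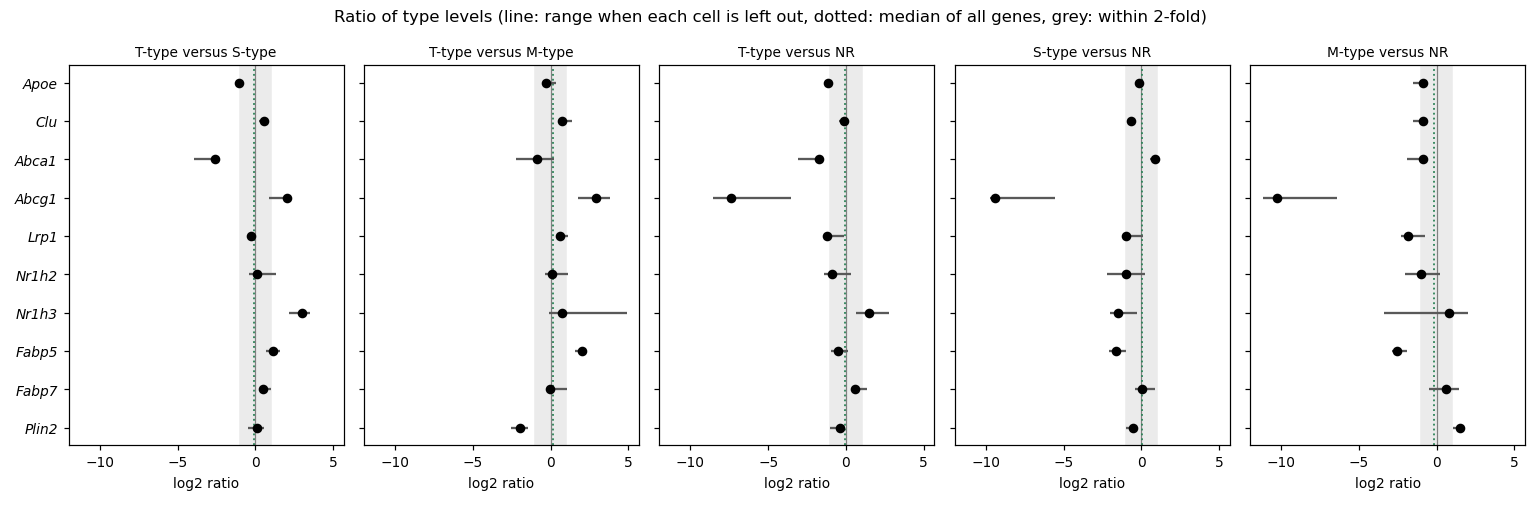
Log2 ratio of type levels for the 10 genes in 5 comparisons, with a line over the values found when each cell is left out in turn, grey for less than 2-fold and a dotted line at the median of the 12719 genes. Abca1 lies beyond 2-fold in T-type against S-type and NR, Plin2 lies on opposite sides in T-type against M-type and M-type against NR, and the Abcg1 ratios to S-type use the bound of 3 reads.

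As a list, the counts of members past the 2-fold limit were near the shares of the whole table. Between T-type and S-type, 3 were at least 2-fold higher (Abcg1, Nr1h3 and Fabp5) and 2 at least 2-fold lower (Apoe and Abca1). Of all 12719 genes, 26% were higher and 32.2% lower by that much, and the median log2 ratio was 0.31 over the members and -0.07 over all genes. Between T-type and M-type, 2 were higher (Abcg1 and Fabp5) and 1 lower (Plin2), beside 30.4% and 27.3% of all genes. Between T-type and NR, 1 was higher (Nr1h3) and 4 were lower (Apoe, Abca1, Abcg1 and Lrp1), beside 28.6% and 32.4%. Scaling by total reads (CPM) lowers T-type as a whole. On that scale 16.7% of all genes were higher and 37.8% lower against S-type, 19.9% and 34.1% against M-type, and 19.3% and 37.9% against NR, with 2 and 2, 2 and 2, and 1 and 6 of the members.

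Between S-type and NR, none of the 10 was at least 2-fold higher and 3 were lower (Abcg1, Nr1h3 and Fabp5), beside 25.1% and 22.4% of all genes. Between M-type and NR, 1 was higher (Plin2) and 4 were lower (Abcg1, Lrp1, Nr1h2 and Fabp5), beside 19.8% and 28.1%. The member medians in the 3 comparisons with NR were -0.72 for T-type, -0.82 for S-type and -0.90 for M-type, while the medians over all genes were -0.05, 0.03 and -0.20. These 3 comparisons share the same 5 NR cells, so they are not separate observations of NR. No member had cells that did not overlap between the 2 types compared. Over all genes the share without overlap was 0.771% between T-type and S-type, 0.739% between T-type and M-type, 0.991% between T-type and NR, 0.409% between S-type and NR and 0.598% between M-type and NR, so of 10 genes 0 is near what the table as a whole gives.

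Single cells stood out over several members. T-type cell 5, with 19279519 reads the deepest of its type, had the lowest value of all 22 cells for Apoe, Clu and Abca1, at 282, 286 and 26.6. Its Fabp7 value was 30247, above the T-type median of 23344. Its endothelial markers summed to 2499, the most of any cell, but Kdr was the only 1 of the 6 with a read. Those of mural cells and fibroblasts summed to 53034, with 1 of 7 markers above 3 reads. T-type cell 1 and S-type cell 5 had higher mural and fibroblast sums, 103138 and 73193. The part of these markers was not tested. NR cell 5 had the highest value of all cells for Apoe, Abcg1 and Lrp1, at 7690, 1306 and 1863, and the lowest of its type for Fabp5 and Plin2, at 301 and 1.85. That NR cell also had the high astrocyte, neuron, endothelial and oligodendrocyte lineage sums given with Abcg1, and their part in these values was not tested. M-type cell 4 had a like arrangement within its type, with the highest Apoe, Abca1 and Lrp1 (5855, 8172 and 360) and the lowest Plin2 (64.8). Its markers of the oligodendrocyte lineage summed to 18038, below the 21336 of M-type cell 5. Within its type, M-type cell 4 had the highest astrocyte sum (64556). Its sums for neurons (1027) and for mural cells and fibroblasts (324) were the lowest of the type. The part of these markers was not tested.

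**Figure D5:**
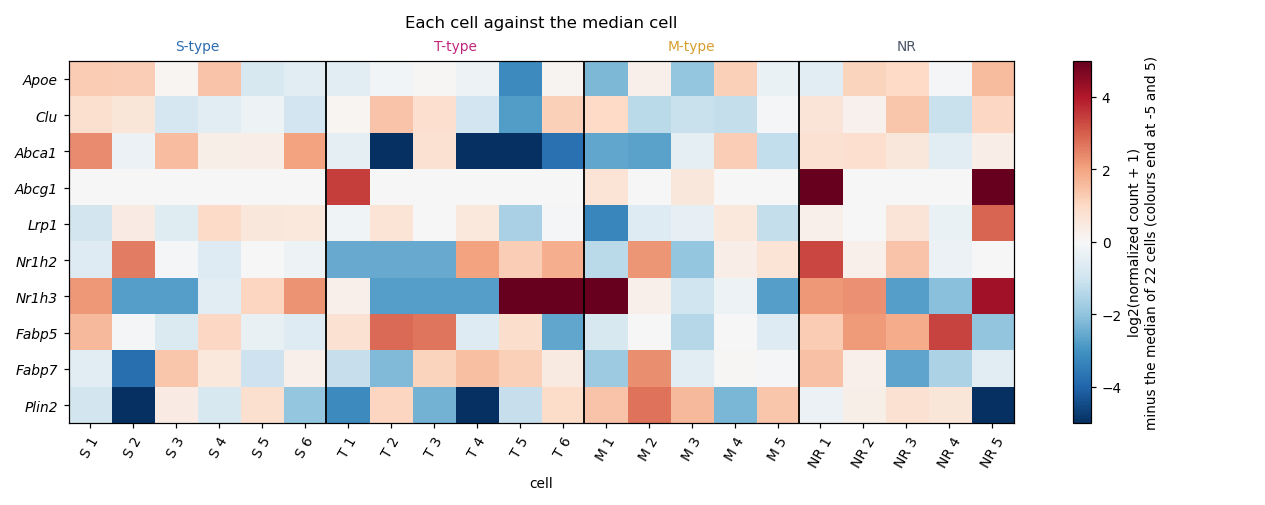
Difference of log2(normalized count + 1) from the median of the 22 cells for each gene (rows) and cell (columns, by type), with colours that end at -5 and 5. T-type cell 5 is low for Apoe, Clu and Abca1, and NR cell 5 is high for Apoe, Abcg1 and Lrp1 and low for Fabp5 and Plin2.

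Across cells, the rank correlation of Plin2 was -0.30 with Apoe, -0.27 with Abca1 and -0.38 with Lrp1 (Spearman, 22 cells). Over the 16 cells outside T-type it was -0.67, -0.59 and -0.55, the most negative values of all pairs of members there. The most positive correlation among all pairs of members over the 22 cells was 0.40 between Apoe and Lrp1, and the most negative was -0.45 between Clu and Fabp7. Over the 16 cells the most positive was 0.48, between Abcg1 and Nr1h3, which have reads in few cells. The points share types, cultures that cannot be named here and the size factors, and these values are given as a description. Of 8490 other genes with a mean of at least 100, those most like each member over the 22 cells were Gpr37l1 and Mgst1 for Apoe (0.71 and 0.71), Degs1 and Lipa for Clu (0.82 and 0.76), and Tbc1d23 and Herc2 for Abca1 (0.81 and 0.80). They were Tsc22d1 and Mpp5 for Fabp5 (0.70 and 0.68), Glud1 and AA987161 for Fabp7 (0.79 and 0.77), Hint3 and Mtmr9 for Plin2 (0.76 and 0.75), and AI987944 and 4930526I15Rik for Lrp1 (0.83 and 0.74). These genes were picked as the highest of 8490 correlations in the same 22 cells. How high the picked values would be by chance was not tested, so no shared regulation is read from them.

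A list of 51 further genes of the same pathways was read beside the members, and 42 of them passed the filter. At least 2-fold higher and lower were 6 and 14 in T-type against S-type, 16 and 9 in T-type against M-type, 6 and 17 in T-type against NR, 10 and 10 in S-type against NR, and 6 and 19 in M-type against NR. The shares of all genes higher and lower, in the same order, were 26% and 32.2%, 30.4% and 27.3%, 28.6% and 32.4%, 25.1% and 22.4%, and 19.8% and 28.1%. Among the 8 lipid transporters other than the members, 0 were higher and 5 lower in T-type against NR, 1 was higher and 4 were lower against S-type, and 2 were higher and 4 lower against M-type, beside the same shares. Npc2, which moves cholesterol out of lysosomes and had the most counts of the group, was 2.31-fold higher in T-type than in S-type, with 12142 and 4975 in T-type cells 2 and 3, the cells of smallest size factor. Without T-type cell 2 it was 1.28-fold. Abca3, a phospholipid transporter, had T-type log2 ratios of -0.67 to S-type, -0.30 to NR and 1.11 to M-type, which were -1.98, -1.61 and -0.20 without T-type cell 3. M-type was 2.66-fold below NR, and 1.65-fold without NR cell 5.

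Lpl, the lipoprotein lipase that frees fatty acids from lipoprotein particles, was low in M-type. M-type cells 1 to 5 had 162.7, 1900, 793, 105 and 369 normalized counts and NR cells had 2905, 7240, 2298, 2395 and 1990, at a 5.05-fold lower level. The cells did not overlap, as held for 0.598% of all genes. The highest M-type cell was at 1900 and the lowest NR cell at 1990. These were M-type cell 2 with 2714 reads and NR cell 5 with 2147 reads, at size factors of 1.43 and 1.08. The order of these 2 cells thus rested on the scaling. T-type had a level of 8956, which came mostly from cell 2 at 48792, beside 4.54 to 4516 in its other cells. That cell had 13454 Lpl reads at a size factor of 0.276, against 16875 reads in S-type cell 2 at 0.923. Without T-type cell 2, the T-type log2 ratio to S-type turned from 0.59 to -2.59. The ratio to NR went from 1.41 to -1.77, and that to M-type from 3.75 to 0.57. Pltp, a phospholipid transfer protein, had 21 reads in M-type and 416 in NR, 390 of them in NR cell 4, which is rich in microglial markers, and without it the M-type level was 1.96-fold lower.

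Of the receptors, Lrp8, the Apoe and reelin receptor of brain, was 2.14-fold lower in T-type than in S-type and 2.06-fold higher in S-type than in NR. Without S-type cell 1, at 6438, these were 1.56-fold and 1.501-fold. Leaving out T-type cell 2 or 3 also ended the first (1.79-fold and 1.78-fold), and NR cell 4 or 5 the second (1.71-fold and 1.93-fold). Lrpap1, the chaperone of LRP receptors, had levels of 3767 in T-type, 2792 in S-type, 1883 in M-type and 3568 in NR. Ncor1, a co-repressor of nuclear receptors, was 2.89-fold higher in T-type than in S-type, with T-type cells 1 and 3 at 36671 and 13200, and 1.25-fold higher without cell 1. Scd2, a fatty acid desaturase, stayed within 2-fold in all 5 comparisons, at 42779 in NR, 40033 in M-type, 27955 in T-type and 27140 in S-type.

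Soat1, which esterifies cholesterol for storage, was highest in NR at 1135, with 681 in S-type, 442 in M-type and 253 in T-type. T-type was 4.48-fold lower than NR, and 8.01-fold without T-type cell 6. Dgat1, which makes triacylglycerol, was lowest in NR at 128, 2.56-fold below S-type and 2.15-fold below M-type. Without NR cell 2 these were 4.54-fold and 3.81-fold, and without M-type cell 1 the second was 1.69-fold. Leaving out M-type cell 4 or NR cells 1, 4 or 5 also brought the second under 2-fold, to 1.76-fold at the least. Cyp7b1, which hydroxylates oxysterols, had 0 reads in the 6 T-type cells against 893 in NR, 582 in S-type and 266 in M-type. Its T-type level was at least 128-fold lower than S-type and at least 212-fold lower than NR on the bound of 3 reads. In NR most of it came from cell 3, at 577 normalized counts, and in S-type from cell 1, at 391. The bounds fell to 33.4-fold and 27.9-fold without those cells. The median of Cyp7b1 was 1.62 in S-type, 3.50 in M-type and 0.607 in NR, so many cells of these types were near 0 too. Cyp46a1, the cholesterol 24-hydroxylase, was at 6.73 in M-type and 22.4 to 32.6 in the other types. The T-type level came mostly from cell 5, at 121, and was 6.82-fold below S-type without it.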

How the data were processed

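Single astrocytes were aspirated after calcium imaging, and the RNA of each was carried through antisense RNA amplification, stranded TruSeq libraries and paired NextSeq sequencing. The authors trimmed the reads, aligned them with STAR to GRCm38 and deposited raw counts per gene symbol and cell, the uniquely aligned exonic reads, without normalization. The methods name VERSE as the counter, the submitters' processing notes list HTSeq, and versions and the use of strand are not given in the sources used here. There were no molecular identifiers, so intervals and floors cover counting error only and amplified reads are not independent molecules.

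The 10 members and all gene lists were chosen with earlier results of these data known. Size factors were medians of ratios over 3670 genes detected in all cells (NumPy 2.4.6, pandas 2.3.3, Python 3.11.15). A level of 0 was replaced by 3 reads over the type, comparisons used genes detected in at least 5 cells, and a call was a ratio of at least 2-fold or cells that did not overlap. Intervals of ratios were exact binomial splits of the reads at 95% (SciPy 1.17.1). Each type counted as 1 sample, so no p-value was computed. All 22 type entries of the table matched the sample labels. Of the wider list, the 2 genes with the most normalized counts per group were named, and for each member read in at least 20 cells, the 2 genes of highest Spearman correlation. Positions and exon lengths came from GENCODE vM21. No other gene of the count table overlapped a member there. Figures used matplotlib 3.10.9, and the ratios were tested on simulated data. Alternatives were TMM factors (edgeR 4.0.16 under R 4.3.3), CPM, thinning to 2937786 reads, medians, means of log2 values, a pseudocount of 1, no filter and leaving out each cell. After the values were seen, 2 alternatives were added: NR without the 3 cells rich in microglial markers, and T-type without the 2 cells of size factor under 0.5. The calcium recordings were not used here.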

Additional observations from a re-analysis of the deposited data

Results flagged for a closer look

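Within each type, the lowest and the highest cell of each member were compared with the rest by Dixon's criterion, in 39 sets of cells, and 6 cells were far from the others. The criterion flags about 1 set in 20 by chance when values are normally distributed. These counts are skewed and some are 0, so the number of flags to be had by chance is not known here. In T-type, cell 5 was low for Apoe at 282 normalized counts and for Lrp1 at 80.4, and cell 1 was the only T-type cell with Abcg1 reads, at 9.85. With the other cells at 0, a single cell with any reads meets the criterion, so this flag says nothing of its size. In S-type, cell 2 was high for Nr1h2 at 32.5 normalized counts, which is 30 reads. Plin2 was low in M-type cell 4, at 64.8, and in NR cell 5, at 1.85, the cells with the highest Apoe and Lrp1 of their types.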

How the results depend on the processing

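Of 50 member ratios, 21 were at least 2-fold. Over 147 recomputations of these with another scaling, summary, filter or floor, 139 kept their direction and 123 stayed past 2-fold. All 10 members pass the filter, so leaving the filter out could not change a ratio. The 21 were picked for being past 2-fold, and the same counts for all genes are not given, so these counts are descriptions only. Leaving out a cell kept the direction in 230 of 231 and the 2-fold call in 210. The number past 2-fold between T-type and S-type fell from 5 to 3 with thinned cells, to 3 with medians and to 2 with means of log2 values. The shares of all genes higher and lower then were 16.5% and 36.4%, 10.95% and 45.1%, and 8.52% and 51.9%, beside 26.0% and 32.2%. Leaving out each cell gave 4 to 5 in T-type versus S-type, 3 to 6 in T-type versus M-type, 4 to 6 in T-type versus NR, 3 to 6 in S-type versus NR and 5 to 8 in M-type versus NR. The shares of all genes past 2-fold with each cell left out are not given here, so these ranges are descriptions only. Members without overlap then numbered 0 to 1, 0 to 1, 0, 0 and 0 to 2. In the settings where a member did not overlap, 1.18% to 1.47% of all genes did not. With NR cells low in microglial markers only, S-type versus NR had 5 past 2-fold, beside 41.0% of all genes higher and 22.5% lower. In that setting 1 member in T-type (Apoe), 1 in S-type (Clu) and 2 in M-type (Clu and Lrp1) did not overlap with NR. Only 2 NR cells remain there, and 6.31%, 8.85% and 11.2% of all genes did not overlap. With T-type cells of size factor over 0.5 only, 1 member (Abca1) did not overlap with S-type, beside 1.97% of all genes.

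Among the 21 ratios, these had the opposite sign. With thinned cells they were Abcg1 in T-type versus S-type (-0.58) and versus M-type (-0.85), where 2 T-type reads stand against a floor of 3 reads for 0, so the sign comes from the floor. With medians they were Nr1h3 in T-type versus S-type (-1.26) and versus NR (-3.05), Nr1h2 in M-type versus NR (0.13), and Abcg1 in T-type versus NR (0.65) and S-type versus NR (0.019). The last 2 are ratios of floors, since the median Abcg1 was 0 in all these types, and show no direction. Nr1h3 in T-type versus NR was -0.26 with means of log2 values. Nr1h2 in M-type versus NR was 0.23 without NR cell 1 (-2.06 to 0.23 over all cells left out). Fabp5 in T-type versus S-type was -0.32 with T-type cells of size factor over 0.5 only. The cause of these others was not tested. Of the 29 ratios under 2-fold, 17 changed sign in at least 1 setting.

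The scaling moved all genes of T-type. CPM shifted the median log2 ratio of all genes from -0.07 to -0.44 against S-type, from 0.17 to -0.31 against M-type and from -0.05 to -0.45 against NR. Member ratios of T-type are to be read relative to these shifts. No paired analysis was possible because the labels give the cells no replicate number, animal or culture. The type totals of Nr1h2, Nr1h3 and Abcg1 include values under 100 reads, so their ratios are to be read with care. Abcg1 had 0 reads in S-type libraries of 12229280 to 16254761 counts, and the part of depth was not tested.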
